A study of Mus musculus with 8 samples.

Results

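Carbonic anhydrases convert carbon dioxide and water into bicarbonate and a proton, and back. The mouse family holds cytosolic enzymes, a pair of mitochondrial enzymes, a secreted enzyme, enzymes anchored at the cell surface, and related proteins without the activity. In adipose tissue the cytosolic enzyme CAR3 is among the most abundant proteins of mature fat cells, while CAR9, at the cell surface, is best known as a product of genes switched on by the hypoxia-inducible factor HIF-1. The family described here comprises 10 genes, Car2, Car3, Car4, Car5b, Car6, Car8, Car9, Car12, Car13 and Car14, in cells cultured from the fat of mice on 2 diets for 2 lengths of time. The genes were chosen by measured levels: Car3 was lower and Car9 higher at 24 than at 12 weeks on the control diet. A gene belonged if it carried one of these symbols, matched through the accession of an array probe. That difference is therefore given as a description, with no test, and so are all values of Car3 and Car9 that set a chow group against another group.

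The mice were male C57BL/6, 6 weeks old at the start. The groups were high-fat diet with 60% fat for 24 weeks (HF24), control chow for 24 weeks (C24), high-fat diet for 12 weeks (HF12) and control chow for 12 weeks (C12), with 2 arrays in each. The labels call the 24-week groups old and the 12-week groups young: mice fed for longer were also older, so feeding time and age cannot be told apart. Collagenase-digested abdominal subcutaneous fat was plated, and the labels call the adherent, passaged cells adipose-derived mesenchymal stem cells. Their RNA was measured on 1-colour Agilent mouse arrays. Levels are log2 intensities minus the 75th percentile of the same array, so a level of 0 lies at that percentile and a difference of 1 is a doubling. No label ties the 2 arrays of a group to separate animals or cultures, so each p-value reflects array-to-array spread that could be technical alone.

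All 8 arrays lay on 1 slide and were read in 1 scan. The 24-week arrays filled slide row 2 and the 12-week arrays row 1, and the high-fat arrays filled slide columns 3 and 4 and the chow arrays columns 1 and 2. Feeding time cannot be told apart from slide row either, nor diet from slide column. The share of probes well above background was 57.6% to 62.4% at 24 weeks and 65.1% to 67.2% at 12 weeks, and no spot was saturated. All 9 measured stromal markers of a list of 10 (Pdgfra, Thy1 and others) were well above background on both arrays of each group. Markers of other cell types were also detected on both arrays of a group: of 12 macrophage markers 12 in HF24, 11 in C24, 12 in HF12 and 11 in C12; of 14 mature adipocyte markers 9, 12, 13 and 14; and of 10 skeletal muscle markers 9, 10, 10 and 10, in the same order.

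Of the 10 genes, 9 were matched to 12 of the 56413 probes used, and no probe was matched to Car5b, which encodes a mitochondrial enzyme. Car12 was not well above background on any array. The other 8 genes are among the 29584 genes and unnamed features that entered the fit. Car4 entered only because it was detected on both C12 arrays. Where a gene had several kept probes, the brightest stands for it.

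**Figure D1:**
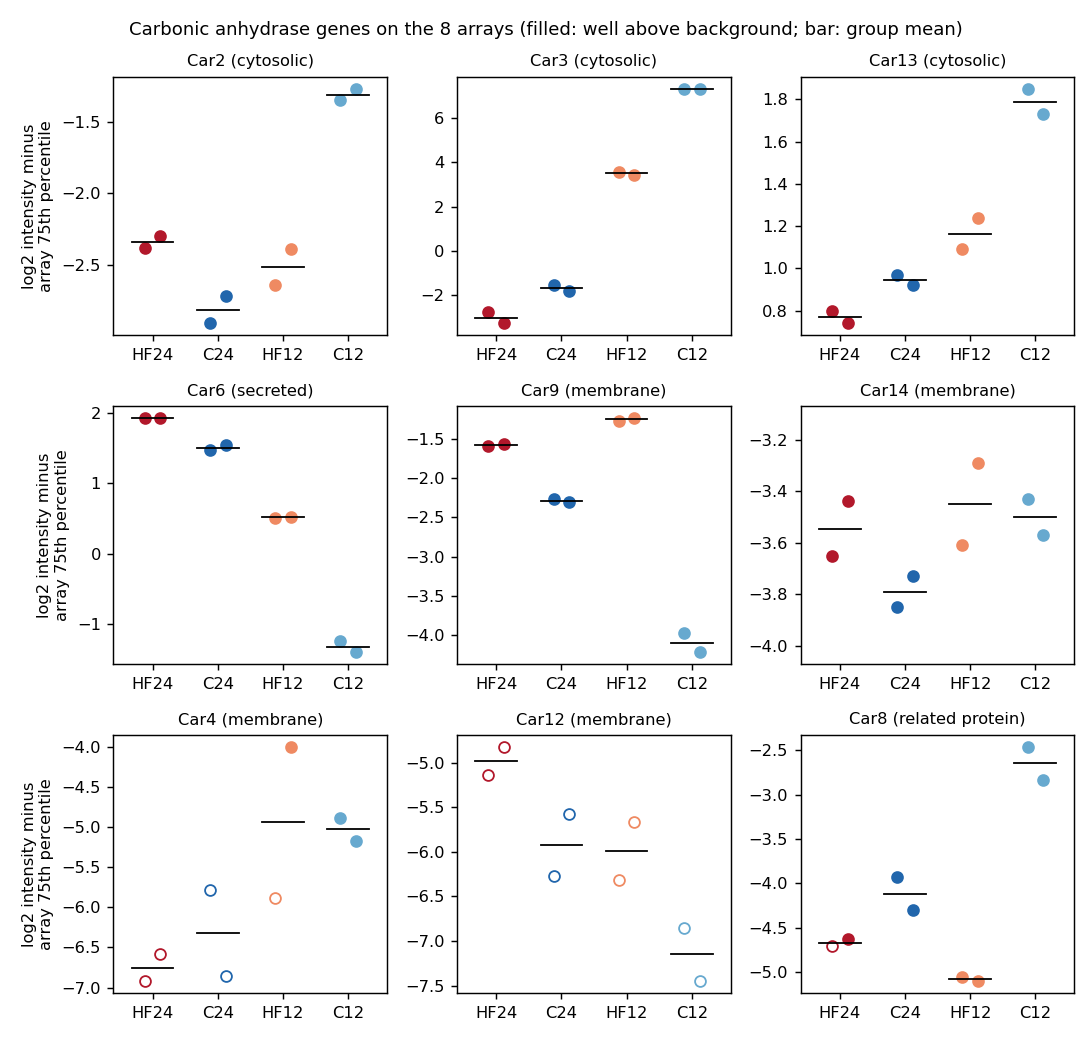
Levels of 9 carbonic anhydrase genes (log2 intensity minus the 75th percentile of the array, a different scale in each panel) on 2 arrays of each of the groups HF24, C24, HF12 and C12. Filled points are well above background, open points are not, and bars are group means. Car3 ran from 7.31 down to −3.27, Car6 was highest in HF24 and lowest in C12, and Car9 was lowest in C12 and highest in HF12.

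Car3 encodes a cytosolic enzyme of low activity that is abundant in fat cells, liver and slow skeletal muscle. Its levels were −2.75 and −3.27 on the HF24 arrays, −1.53 and −1.83 on the C24 arrays, 3.55 and 3.44 on the HF12 arrays, and 7.31 and 7.29 on the C12 arrays. The groups did not overlap, and the order was C12, HF12, C24, HF24 from high to low. The probe was well above background on all 8 arrays, so each end of this range was measured. Between the high-fat groups, which took no part in choosing the family, Car3 was 90.7-fold lower in HF24 than in HF12 (limma adjusted p = 9.98e-06). The log2 change was −6.50 ± 0.19, where ± gives the standard error of a difference between groups of 2 arrays, here and below, and −5.83 after normexp background correction with quantile normalization (below, normexp). The values with no test are 506-fold lower in C24 than in C12 (−8.98 ± 0.19), a log2 change of −3.81 ± 0.19 in HF12 against C12 and 2.51-fold lower in HF24 than in C24 (−1.33 ± 0.19). In RNA from a mixed culture, fewer cells of a type and less RNA per cell cannot be told apart.

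The mean levels of mature adipocyte and of skeletal muscle markers followed the same order of groups as Car3. The mean level of 14 adipocyte markers was −2.01 and −2.03 in HF24, −1.13 on both C24 arrays, 1.11 and 1.12 in HF12, and 3.72 and 3.76 in C12. In HF24 against HF12, 2 of the 14 were higher and 11 lower by the same test, with a median log2 change of −2.28 beside −0.01 over all genes. Pck1, counted as higher, was not well above background in either group. The share of all genes called was 46.8% in this comparison, 31.0% in HF12 against C12 and 34.1% in HF24 against C24. Counts for the other lists below stand beside these shares. Adipoq, which encodes the adipokine adiponectin, was well above background in HF12 and not in HF24, and was at least 303-fold lower in HF24 (limma adjusted p = 4.99e-07). In HF24 against C24, 2 of the 14 adipocyte markers were higher and 8 lower, with a median of −0.34 beside 0.02 over all genes. Cfd (−5.66 ± 0.21) and Adipoq (−3.35 ± 0.08) fell most there, and neither was well above background in HF24. The mean level of 10 muscle markers was −0.10 and −0.03 in HF24, 1.83 and 1.87 in C24, 2.76 and 2.74 in HF12, and 3.05 and 3.09 in C12. All 10 were lower in HF24 than in HF12, among them Tnni2, a troponin subunit of fast fibres (−3.31 ± 0.06, limma adjusted p = 2.72e-06). The part of these cell types in the Car3 values was not tested.

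**Figure D2:**
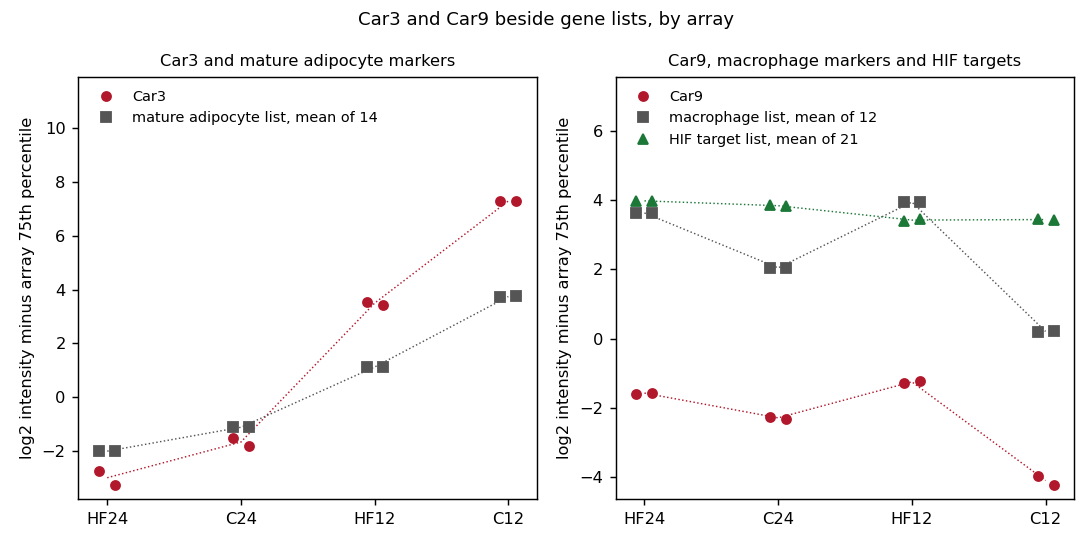
Levels of Car3 beside the mean of 14 mature adipocyte markers (left), and of Car9 beside the means of 12 macrophage markers and 21 HIF targets (right), as log2 intensity minus the 75th percentile of the array, on the 2 arrays of each group. Dotted lines join group means and are no time course. Car3 and the adipocyte mean were both lowest in HF24 and highest in C12, Car9 and the macrophage mean were both highest in HF12 and lowest in C12, and the HIF target mean was highest in HF24.

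Car2 encodes the widespread, fast cytosolic enzyme. Its levels were −2.38 and −2.30 in HF24, −2.91 and −2.72 in C24, −2.64 and −2.39 in HF12, and −1.35 and −1.27 in C12. Both C12 arrays stood above all others. No groups overlapped, though HF24 replicate 1 and HF12 replicate 2 lay side by side. Car2 fell 2.31-fold in HF12 relative to C12 (−1.21 ± 0.11, limma adjusted p = 6.04e-04). At 24 weeks the diet difference had the other sign, with Car2 1.39-fold higher in HF24 than in C24 (0.48 ± 0.11, limma adjusted p = 0.0203). That call was lost without C24 replicate 1 (adjusted p = 0.0947), HF24 replicate 1 (0.0581) or HF24 replicate 2 (0.0844). The change in HF24 against HF12 was 0.18 ± 0.11 (limma adjusted p = 0.235), though with normexp it passed the threshold (0.25, limma adjusted p = 0.0171). C24 lay 1.51 ± 0.11 below C12 on the log2 scale. CAR2 is also abundant in osteoclasts. The mean level of 6 osteoclast markers was −0.44 in HF24, −0.88 in C24, −0.02 in HF12 and −0.83 in C12. Of these 6, 5 were detected on both arrays in HF24, 4 in C24, 6 in HF12 and 4 in C12. The osteoclast mean was highest in HF12 and Car2 in C12. The part of such cells in the Car2 values was not tested.

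Car13 encodes another cytosolic enzyme and lies beside Car2 and Car3 on chromosome 3. Its levels were 0.80 and 0.74 in HF24, 0.97 and 0.92 in C24, 1.09 and 1.24 in HF12, and 1.85 and 1.73 in C12. The group means had the order of those of Car3, C12, HF12, C24 and HF24 from high to low, over a far smaller range. Car13 fell 1.54-fold in HF12 relative to C12 (−0.62 ± 0.08, limma adjusted p = 0.00232) and 1.32-fold in HF24 relative to HF12 (−0.40 ± 0.08, limma adjusted p = 0.00847). The diet difference at 24 weeks was −0.18 ± 0.08 (limma adjusted p = 0.134), and C24 lay 0.84 ± 0.08 below C12. With normexp that diet difference passed the threshold (−0.23, limma adjusted p = 0.0431).

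In the RefSeq gene table for GRCm38.p6, Car13, Car1, Car3 and Car2 follow each other on chromosome 3 with no other protein-coding gene between them. Car1, which encodes a cytosolic enzyme of red blood cells and gut, is not among the 10 genes. Its levels were −2.58 and −2.35 in HF24, −1.86 and −2.15 in C24, −2.25 and −1.99 in HF12, and −1.82 and −1.98 in C12. Its tested changes were −0.35 ± 0.15 in HF24 against HF12 (limma adjusted p = 0.105), −0.22 ± 0.15 in HF12 against C12 (0.313) and −0.46 ± 0.15 in HF24 against C24 (0.0593). The group means of Car13, Car3 and Car2 were highest in C12, which did not overlap the other groups. That of Car1 was too, but its C12 arrays overlapped those of C24 and none of its tested changes passed. The ranges of these neighbours across groups differed widely.

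Car6 encodes the secreted member, known mainly from saliva. Its levels were 1.93 on both HF24 arrays, 1.47 and 1.54 in C24, 0.51 and 0.52 in HF12, and −1.24 and −1.40 in C12. The 4 groups did not overlap, and each step in their order exceeded the spread within groups. Car6 rose 2.67-fold in HF24 relative to HF12 (1.42 ± 0.07, limma adjusted p = 5.72e-05), 3.56-fold in HF12 relative to C12 (1.83 ± 0.07, limma adjusted p = 1.45e-05) and 1.34-fold in HF24 relative to C24 (0.42 ± 0.07, limma adjusted p = 0.00592). These calls held under every alternative run, the omission of each array included. C24 lay 2.83 ± 0.07 above C12, a 7.09-fold difference given as a description.

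Car9 encodes a cell-surface enzyme whose catalytic domain faces outward. Its levels were −1.59 and −1.56 in HF24, −2.27 and −2.31 in C24, −1.27 and −1.23 in HF12, and −3.98 and −4.22 in C12. The groups did not overlap, and HF12 was highest and C12 lowest. Between the high-fat groups Car9 was 1.26-fold lower in HF24 than in HF12 (−0.33 ± 0.09, limma adjusted p = 0.0236) while on chow the 24-week level was the higher one. The difference between the diets was not tested. That call was lost without HF12 replicate 1 (adjusted p = 0.0771), HF12 replicate 2 (0.101), HF24 replicate 1 (0.0973) or HF24 replicate 2 (0.0717), and under quantile normalization (−0.23, adjusted p = 0.0965). The values with no test are 3.51-fold higher in C24 than in C12 (1.81 ± 0.09), 7.24-fold higher in HF12 than in C12 (2.86 ± 0.09) and 1.64-fold higher in HF24 than in C24 (0.71 ± 0.09). With normexp the changes were 1.05 in C24 against C12 and 1.89 in HF12 against C12.

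A second Car9 probe, also well above background on all arrays, spanned a smaller range. It read −2.79 and −2.81 in HF24, −2.88 and −2.75 in C24, −2.43 and −2.53 in HF12, and −3.19 and −3.22 in C12. HF12 was again highest and C12 lowest, but HF24 and C24 overlapped, with a difference of 0.01 ± 0.07 where the first probe gave 0.71 ± 0.09. In HF24 against HF12 both probes gave about the same change, −0.32 ± 0.07 for the second (limma adjusted p = 0.0128 over all kept probes). C24 lay 0.39 ± 0.07 above C12 by the second probe and 1.81 ± 0.09 by the first. The direction of the chow difference was shared by both probes, and its size was not.

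**Figure D3:**
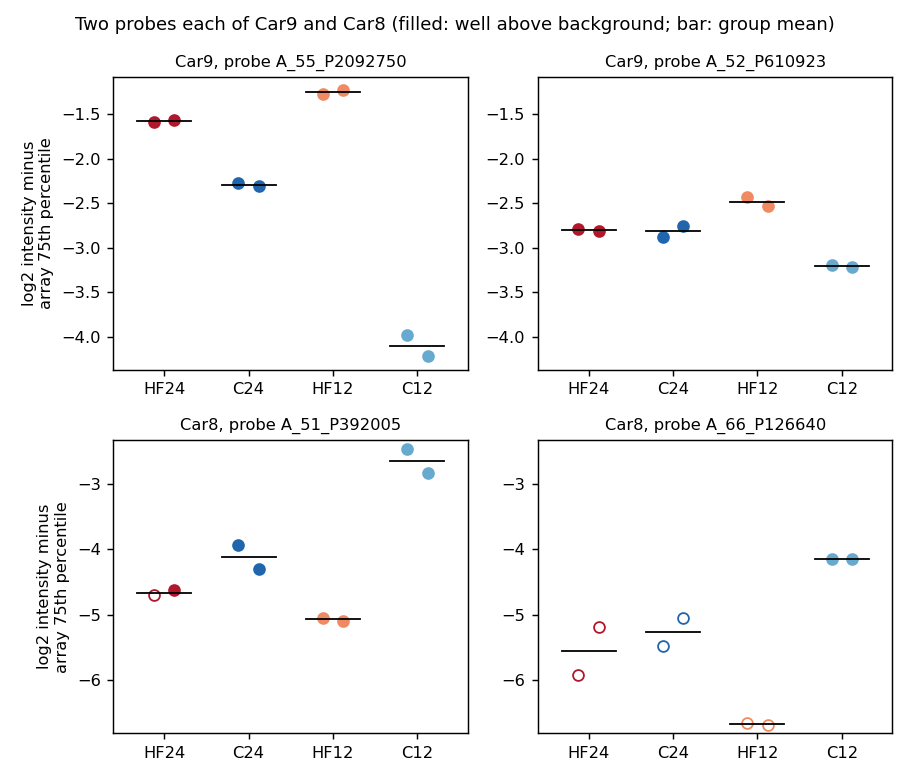
Levels of both kept probes of Car9 (top) and of Car8 (bottom), as log2 intensity minus the 75th percentile of the array, on 2 arrays of each group, with one scale per gene. Filled points are well above background and bars are group means. The Car9 probes shared HF12 as the highest and C12 as the lowest group but differed at 24 weeks. Both Car8 probes were highest in C12, but the dimmer was kept through C12 alone and is no support for the other.

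The mean of the macrophage markers moved with the first Car9 probe. The mean level of 12 macrophage markers was 3.63 and 3.62 in HF24, 2.03 and 2.05 in C24, 3.93 and 3.95 in HF12, and 0.20 and 0.21 in C12. This is the order of groups seen for the first Car9 probe. By the second probe HF24 and C24 overlapped (0.01 ± 0.07). In HF24 against HF12, 2 of the 12 were higher and 9 lower, with a median of −0.32, and the mannose receptor gene Mrc1 fell (−1.46 ± 0.06, limma adjusted p = 2.98e-05). In the diet comparisons, 11 of the 12 were higher and 0 lower in HF12 than in C12 (median 3.66), and 10 were higher and 1 lower in HF24 than in C24 (median 1.21). Mrc1 was among those not higher in HF24 than in C24 (−0.16 ± 0.06, limma adjusted p = 0.0943). The part of these cells in the Car9 values was not tested.

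HIF targets went the other way from Car9 in HF24 against HF12 and the same way in some other comparisons. Of 21 measured genes in a list of HIF and its targets, 16 were higher and 0 lower in HF24 than in HF12, with a median of 0.55, while Car9 was lower. Examples are Vegfa, which encodes the main angiogenic growth factor (1.00 ± 0.07, limma adjusted p = 1.94e-04), Ankrd37 (1.04 ± 0.06, limma adjusted p = 9.13e-05), and the gene of the factor itself, Hif1a (0.88 ± 0.06, limma adjusted p = 1.39e-04). In HF12 against C12, 7 were higher and 6 lower (median 0.11). Of the examples, Vegfa fell (−0.43 ± 0.07, limma adjusted p = 0.00625) and Ankrd37 rose (0.77 ± 0.06, limma adjusted p = 2.73e-04). Hif1a did not pass (limma adjusted p = 0.98). In HF24 against C24, 7 were higher and 2 lower (median 0.22), where 34.1% of all genes were called. Car9 was also higher by its first probe (0.71 ± 0.09), while its second gave 0.01 ± 0.07. The mean of the list was 3.85 and 3.82 in C24 and 3.46 and 3.41 in C12, so it too was higher in C24, as Car9 was. The part of HIF in the Car9 values was not tested.

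Among the 8 measured members, Car6 and Car9 had C24 levels above their C12 levels. Their promoters are shown because HIF-1 binds a short core, ACGTG or GCGTG, that can be looked for in both. The sequences are the 250 bases before the start of the gene, 5′ to 3′ on its own strand, from RefSeq (GRCm38.p6), at chr4:150201136-150201385 on the minus strand for Car6 and chr4:43506776-43507025 on the plus strand for Car9. Capitals mark the core on either strand.
Car6: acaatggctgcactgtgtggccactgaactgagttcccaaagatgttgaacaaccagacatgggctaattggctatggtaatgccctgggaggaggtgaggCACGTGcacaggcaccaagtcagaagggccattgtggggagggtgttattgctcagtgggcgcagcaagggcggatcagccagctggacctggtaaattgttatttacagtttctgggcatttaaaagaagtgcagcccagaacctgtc
Car9: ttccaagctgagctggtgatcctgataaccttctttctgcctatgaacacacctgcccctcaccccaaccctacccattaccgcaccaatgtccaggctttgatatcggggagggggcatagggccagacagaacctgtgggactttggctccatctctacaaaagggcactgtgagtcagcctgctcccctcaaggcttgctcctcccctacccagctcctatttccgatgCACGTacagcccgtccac
Car9 held 1 core, CACGT on the other strand, with its first base at −18 from the start. Car6 held a pair that overlap in CACGTG, with first bases at −149 and −148. ACGTG on either strand occurred in 16.6% of 32851 mouse promoter windows of this length, and either core in 38.6%. No promoter was available for Car2, Car3, Car8 and Car13, which were lower in C24 than in C12. Whether the core sets Car6 and Car9 apart from these genes could therefore not be seen. Of the 6 members with a promoter in the table, 4 held a core. Car14, which passed no test, had CACGT at −7, and its level too was lower in C24 than in C12 (−0.29 ± 0.13, a description). The core was thus not confined to the members that were higher in C24. Car5b, which had no probe, had 5 matches of GCGTG or its complement. Car4, lower in C24 and not well above background there, and Car12 had none in this window. A match of these letters describes the sequence and is not evidence of binding.

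Car14 encodes another transmembrane enzyme. Its levels were −3.65 and −3.44 in HF24, −3.85 and −3.73 in C24, −3.61 and −3.29 in HF12, and −3.43 and −3.57 in C12. HF12, C12 and HF24 overlapped. The tested changes were −0.10 ± 0.13 in HF24 against HF12 (limma adjusted p = 0.584), 0.05 ± 0.13 in HF12 against C12 (0.794) and 0.24 ± 0.13 in HF24 against C24 (0.213). A second Car14 probe was not well above background on any array.

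Car4 encodes an enzyme held at the surface of capillary endothelium and some epithelia by a lipid anchor. It was well above background on 3 arrays. Its levels were −6.92 and −6.58 in HF24 and −5.79 and −6.85 in C24, none of them well above background, −5.88 (not above background) and −4.00 in HF12, and −4.89 and −5.17 in C12. Of the HF12 arrays, 1 was the highest of all and the other overlapped the C24 range. For HF24 against HF12 no size is given, since HF24 was not well above background on either array (limma adjusted p = 0.0633). HF12 against C12 gave 0.09 ± 0.64 (limma adjusted p = 0.935). C24 was at least 1.03-fold lower than C12, the bound taking the lowest intensity well above background on each C24 array or the probe's own where higher. The mean level of 8 endothelial markers was 1.84 in HF24, 1.34 in C24, 0.47 in HF12 and 0.63 in C12. HF24 and C24, where Car4 was not detected, had the higher endothelial means. Detection was stricter there: the lowest level well above background was −4.95 and −5.19 in C24, and −4.75 and −4.93 in HF24. It was −5.72 and −5.57 in C12. The C12 reading of −5.17 would have missed the limit of C24 replicate 1 and of both HF24 arrays. The part of endothelial cells in the Car4 values was not tested.

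Car12 encodes a further transmembrane enzyme, found in kidney and colon. Its readings ran from −7.45 to −4.82, none of them well above background, so no fold is given.

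Car8 encodes a related protein that lacks the activity and is known for its role in Purkinje cells of the cerebellum. Its levels were −4.70 and −4.63 in HF24, −3.93 and −4.30 in C24, −5.05 and −5.10 in HF12, and −2.46 and −2.83 in C12. All readings but HF24 replicate 1 were well above background, and the groups did not overlap. Car8 fell 5.39-fold in HF12 relative to C12 (−2.43 ± 0.16, limma adjusted p = 1.62e-04). With normexp the change was smaller, −1.17 (adjusted p = 1.03e-05). A second Car8 probe was well above background in C12 only and was kept through that group, so its lower readings elsewhere are no support. It read −6.66 and −6.69 in HF12 and −4.14 on both C12 arrays, at least 3.02-fold lower in HF12. In HF24 against C24 the change was −0.56 ± 0.16 (limma adjusted p = 0.0446). That call was lost without any 1 array of HF12 or HF24, or without C24 replicate 1, with adjusted p from 0.079 to 0.172, under quantile normalization (0.149) and with normexp (0.148). HF24 against HF12 gave 0.40 ± 0.16 (limma adjusted p = 0.0898), a call made under quantile normalization (0.58, adjusted p = 0.0394) and when only these groups were fitted (adjusted p = 0.0138). C24 lay 1.47 ± 0.16 below C12, with a change of −0.76 with normexp.

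**Figure D4:**
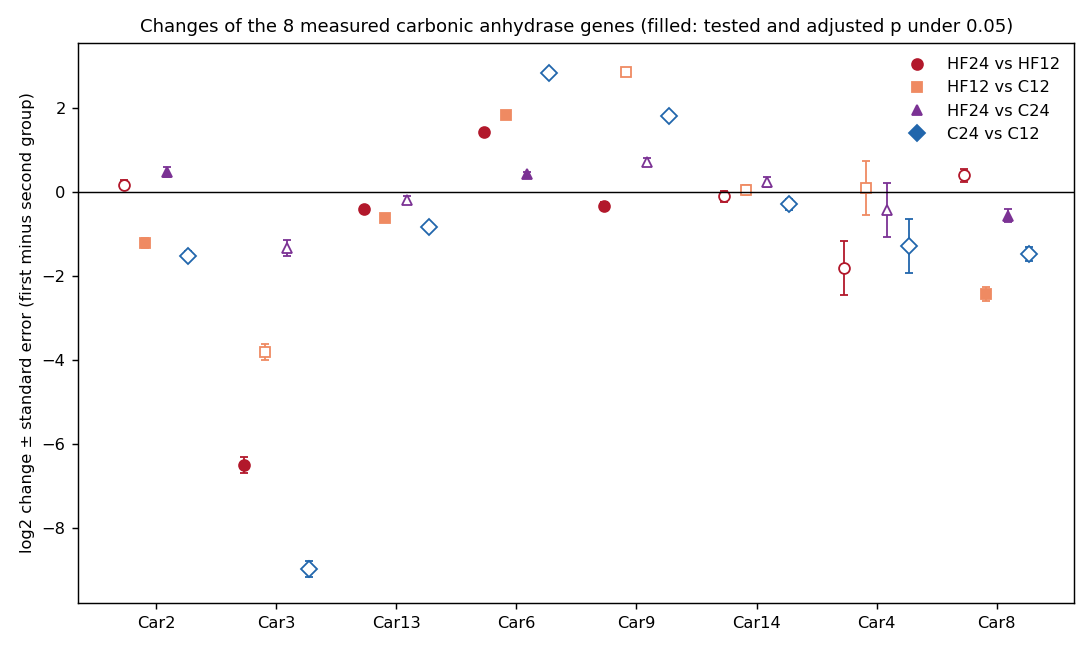
Log2 changes with standard errors (2 arrays per group) of the 8 measured carbonic anhydrase genes in HF24 against HF12, HF12 against C12, HF24 against C24 and C24 against C12. Filled symbols passed an adjusted p of 0.05 where a test was made, and C24 against C12 and the chow comparisons of Car3 and Car9 have none. Car3 lay below 0 in all 4 comparisons, between −8.98 and −1.33, and Car6 above 0 in all 4, between 0.42 and 2.83.

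Over the family, Car6 was called higher in all 3 tested comparisons. In HF24 against HF12, 4 of 8 genes passed, with Car6 higher and Car3, Car9 and Car13 lower. Over all 29584 genes 46.8% were called, 22.5% higher and 24.4% lower. In HF12 against C12, 4 of the 6 genes tested passed, with Car6 higher and Car2, Car8 and Car13 lower. Over all genes 31.0% were called, 13.6% higher and 17.4% lower. In HF24 against C24, 3 of the 6 passed, with Car2 and Car6 higher and Car8 lower. Over all genes 34.1% were called, 15.1% higher and 19.0% lower. That count was 1 without C24 replicate 1, HF24 replicate 1 or HF24 replicate 2, and the gene left was Car6. The diet comparisons share their chow arrays with the choice of the family, and with so few genes these counts do not set the family apart.

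Of 6 other carbonic anhydrase genes, 4 were measured, and Car5a and Car10 were not well above background on any array. In HF24 against HF12, 2 were higher and 0 lower: Car11, which encodes a related protein without the activity (0.64 ± 0.11, limma adjusted p = 0.00495), and Car7, a cytosolic enzyme of neurons (0.22 ± 0.06, limma adjusted p = 0.0246). The same 2 genes were higher in HF24 than in C24, Car11 by 0.50 ± 0.11 (limma adjusted p = 0.0154) and Car7 by 0.31 ± 0.06 (0.00953). In HF12 against C12, Car15, a surface enzyme, was lower (−0.57 ± 0.08, limma adjusted p = 0.00388) and none was higher. The shares of all genes called were 46.8% in HF24 against HF12, 34.1% in HF24 against C24 and 31.0% in HF12 against C12. With 4 genes measured, these counts do not differ clearly from them.

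Proteins that carry or use bicarbonate and protons work beside these enzymes. Of 10 measured bicarbonate transporter genes, 3 were higher and 2 lower in HF24 than in HF12. In HF12 against C12, 0 were higher and 3 lower, and in HF24 against C24, 2 were higher and 2 lower. The shares of all genes called were 46.8%, 31.0% and 34.1% in the same order, so these transporter counts lie near the background. Slc4a4, the sodium bicarbonate cotransporter gene, was higher in HF24 than in HF12 (0.59 ± 0.06, limma adjusted p = 8.21e-04) and lower on the high-fat diet at each time (−0.85 ± 0.06 at 24 weeks and −1.05 ± 0.06 at 12 weeks). Of 16 proton and lactate exporter genes, 3 were higher and 7 lower in HF24 than in HF12, 9 higher and 1 lower in HF12 than in C12, and 4 higher and 0 lower in HF24 than in C24. Slc16a3, which encodes the lactate exporter MCT4, rose in each (1.86 ± 0.05, 1.06 ± 0.05 and 0.82 ± 0.05), while Atp6v0d2, a proton pump subunit of osteoclasts and macrophages, was lower in HF24 than in HF12 (−1.48 ± 0.05, limma adjusted p = 1.81e-05) and higher in HF12 than in C12 (2.73 ± 0.05).

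Among 8 measured genes of enzymes that take up bicarbonate, 1 was higher and 2 lower in HF24 than in HF12, 0 higher and 6 lower in HF12 than in C12, and 0 higher and 1 lower in HF24 than in C24. Their median change in HF12 against C12 was −0.76, beside −0.03 over all genes. The gene called in all 3 was Pcx, which encodes pyruvate carboxylase, a mitochondrial enzyme abundant in fat cells. It fell by 1.53 ± 0.05, 2.73 ± 0.05 and 0.47 ± 0.05 on the log2 scale, with limma adjusted p from 1.86e-06 to 0.00141.

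The named genes with the pattern most like Car3 over the 8 arrays were Plin1, Lpin1, Slc1a3, Adig and Cilk1, with Pearson r from 0.9963 to 0.9986 among 16724 genes. Plin1 encodes a lipid droplet coat protein, and its levels were −4.45 and −4.62 in HF24, −2.86 and −3.05 in C24, 1.07 and 1.12 in HF12, and 4.35 and 4.40 in C12. Among the genes most like Car9, by its first probe only, were Adgre1, Rassf4, Fyb and Clec5a, with r from 0.998 to 0.9994. Adgre1 encodes an adhesion receptor used as a macrophage marker, and its levels were 4.02 on both HF24 arrays, 3.08 and 2.99 in C24, 4.41 and 4.53 in HF12, and 0.91 and 0.69 in C12. Clec5a is also expressed mainly in myeloid cells. These correlations describe 8 points that fall into 4 groups of 2 and share a slide.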

How the data were processed

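Each deposited intensity is a processed value, background-subtracted and spatially detrended within its array, per the file headers (Agilent Feature Extraction 11.0.1.1, design build mm9). The authors' deposited value table holds log2 values that equal log2 of that intensity plus 1 constant per array. The rule behind the constant is not given in the sources used here, and its column medians run from −1.44 to −1.33. The number of arrays limits the precision.

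Control spots and outlier-flagged spots were left out, which removed 192 of 56605 probes. Log2 intensities of spots sharing a probe were averaged, and the 75th percentile of each array was subtracted. Probes well above background on both arrays of at least 1 group were kept (37649), and the brightest kept probe stood for a gene. Accessions were matched to RefSeq symbols (58.3% of probes). All 8 arrays entered a limma 3.58.1 fit (R 4.3.3) with a mean for each group, tested two-sided with Benjamini-Hochberg adjustment over all genes and a threshold of 0.05. The fit was tested on simulated data. Python 3.11.15 with pandas 2.3.3 and matplotlib 3.10.9 read the files and drew the figures. Bounds ("at least") take, on each dim array, the larger of the lowest intensity well above background and the probe's own.

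The members, the lists and the tests were chosen with earlier results of these data known. All 10 genes, the 5 genes most correlated with Car3 and with Car9, and up to 3 called genes of each list by smallest p in HF24 against HF12 were eligible to be named. Car1 and Car15 were named after their values were seen. Some eligible results are not reported here. Alternatives were normexp with an offset of 50 on the deposited median intensity of a spot and its local background (the files hold no mean signal) with quantile normalization, quantile normalization alone, the value table, other filters, other probes, a variance trend, a replicate block, only the groups in question, and the omission of single arrays. Replicate numbers do not pair the samples: the difference between replicates 1 and 2 correlated between groups at −0.08 to 0.17.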

Additional observations from a re-analysis of the deposited data

Results flagged for a closer look

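For 3 genes every 24-week array lay on one side of the 12-week arrays on the high-fat diet and on the other side on chow, though on the high-fat diet only Car9 passed the threshold. The difference between the diets was not tested, because the chow arrays took part in choosing the family. For Car9 the change was −0.33 on the high-fat diet and 1.81 on chow, a difference of −2.14 on the log2 scale. It was smaller by other values: −0.32 and 0.39 by the second Car9 probe, and −0.20 and 1.05 with normexp. The high-fat call was lost when any 1 of the HF24 or HF12 arrays was left out. For Car8 it was 0.40 on the high-fat diet and −1.47 on chow, a difference of 1.87, and the high-fat change did not pass the threshold (limma adjusted p = 0.0898). For Car2 it was 0.18 on the high-fat diet and −1.51 on chow, a difference of 1.68, and the high-fat change did not pass (limma adjusted p = 0.235). With normexp that high-fat change passed (0.25, limma adjusted p = 0.0171). Car2 also differed between the diets in opposite directions, by 0.48 at 24 weeks and −1.21 at 12 weeks, which is the same difference of 1.68.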

How the results depend on the processing

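The family counts in HF24 against HF12 were 3 to 4 genes with an array left out and 4 to 5 otherwise, and those in HF12 against C12 were 4 in each case with an array left out and 3 to 4 otherwise. The count in HF24 against C24 ranged from 1 to 3 with an array left out. Over all genes, the calls in HF12 against C12 were 9167, and 5398 to 8720 with an array left out (HF12 replicate 1 left out, 5398; HF12 replicate 2 left out, 5861; C12 replicate 1 left out, 5966). The replicate block changed no family count (4, 4 and 3), with 12806, 8033 and 8947 genes called in HF24 against HF12, HF12 against C12 and HF24 against C24. The changes that turned sign had not passed the threshold. Car14 in HF24 against HF12 was 0.05 under quantile normalization and −0.26 to 0.06 with an array left out, and in HF12 against C12 it was −0.11 to 0.22. Car4 was −0.86 to 1.03 in HF12 against C12 and −0.96 to 0.10 in HF24 against C24 with an array left out, and 0.02 in HF24 against C24 with normexp. The cause was not tested. Of 318 tested values of single genes under an alternative, 284 kept their direction and side of the threshold, 18 lost the call, 7 gained it and 9 turned sign. Car12, and Car4 at 24 weeks, were not well above background, which limits what can be said of them. Where an array was left out, the lone array of its group was assumed to vary like those of the other groups.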
